A study of Mus musculus with 23 samples.

Results

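Old repopulated microglia were set against young repopulated microglia, all taken from the brains of female C57BL/6 mice. The members were the libraries whose group label read O-re (8 libraries, old mice) or Y-re (3 libraries, young mice), 11 of the 23 libraries in the series. The other 12 were resident microglia from old mice (O, 5 libraries) and young mice (Y, 7 libraries), which entered the fits and served as a reference. To deplete microglia, mice were fed AIN-76A chow with PLX5622, an inhibitor of the receptor CSF1R, at 1200 ppm, and the -re groups were sampled after the cells had grown back. Control mice ate the same chow without the drug. The labels give no age in months, no length of treatment and no time allowed for regrowth, and C57BL/6 is named without a substrain. The protocol texts describe both a magnetic CD11b isolation followed by 7 days in culture and microglia sorted by FACS for RNA, and do not say whether these libraries came from cultured or from freshly sorted cells. They give 2.4 to 147 ng of input RNA, a stranded poly(A) kit and single reads of 50 nt. Mice were housed 5 to a cage. The labels do not say that each library came from its own mouse, so the p-values measure only the spread between these libraries.

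Microglia are the resident macrophages of the brain and depend on signals through CSF1R to survive. Blocking the receptor removes most of them, and once the drug is withdrawn the few survivors divide and refill the tissue. Cells taken soon after regrowth can still carry transcripts of division, while the homeostatic genes of resting microglia (P2ry12, Tmem119, Sall1 and others) return as the cells mature. In the ageing brain, microglia are known for higher transcripts of antigen presentation, interferon response and lipid handling.

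Each library title carries a number, and the number was bound up with the groups. All 3 Y-re libraries were numbered 22 to 24. The O-re libraries were numbered 7 to 11 (replicates 1 to 5) and 19 to 21 (replicates 6 to 8). What the numbers stand for is not stated. No O-re library had a number in the Y-re range, so age and library number cannot be told apart in full; the 5 low-numbered and the 3 high-numbered O-re libraries are therefore given separately for most results. That split was chosen after seeing the data. Depth overlapped, with totals of 45.7 to 58.2 M counts (M, 1e6) in the O-re libraries and 44.9 to 47.8 M counts in the Y-re libraries (two-sided exact permutation test, p = 0.109, 0.327 after Benjamini-Hochberg adjustment over 6 library measures; the smallest p that 8 libraries against 3 can give is 0.0121). On the first principal component of the 11 libraries, which held 27.4% of the variance, libraries 19 to 21 scored 62.0 to 99.8, the Y-re libraries -42.9 to -21.7, and libraries 7 to 11 -109.8 to 31.4. Library 7 (O-re replicate 1) lay at the far low end, and library 23 (Y-re replicate 2) stood apart on the second component, which held 12.7%.

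**Figure D1:**
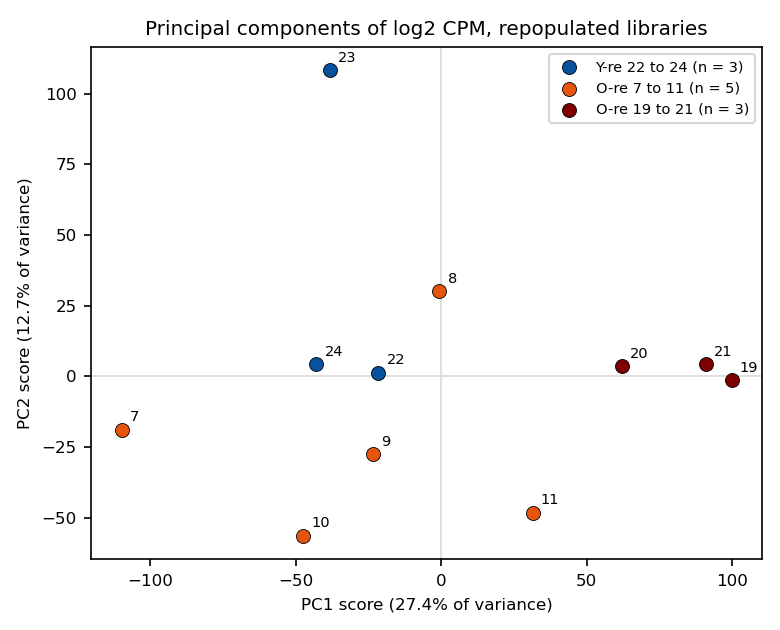
Scores of the 11 repopulated libraries on the first (x axis, 27.4% of variance) and second (y axis, 12.7%) principal components of log2 CPM, 1 point per library, labelled with its number and coloured by group and number range. O-re libraries 19 to 21 lie to the right of every Y-re library, while O-re libraries 7 to 11 lie on both sides of them.

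Defining microglial genes were present in all 11 libraries. On the deposited TPM scale, which is per transcript length, Csf1r, the receptor that the drug blocks, ranged from 931 to 2981 TPM in O-re and from 2303 to 2781 TPM in Y-re. In library-size-scaled counts (CPM, per 1e6 counts after TMM scaling, the scale of all levels below unless another is named), Csf1r measured 5529, 6347 and 6597 in the Y-re libraries, 3446 to 7172 in libraries 7 to 11 and 2416, 3481 and 2450 in libraries 19 to 21. The groups overlapped, and the log2 fold change of O-re over Y-re was -0.53 ± 0.25 (SE; adjusted p = 0.422 in edgeR). The expression of Wdfy1 and Nnt is known to differ between C57BL/6 substrains, and both followed the library number within O-re. Wdfy1 measured 116, 111 and 117 CPM in Y-re, 90.4 to 123 CPM in libraries 7 to 11 and 30.4, 39.6 and 35 CPM in libraries 19 to 21. Nnt measured 23.5, 38.7 and 38 CPM in Y-re, 21.7 to 48.2 CPM in libraries 7 to 11 and 13.9, 14.2 and 12.1 CPM in libraries 19 to 21. For both genes libraries 19 to 21 lay below all 8 other repopulated libraries. Low values were not particular to these libraries, as both genes also spread widely in resident microglia. Wdfy1 ranged from 42.7 to 121 CPM (median 48.6) in O and from 44.5 to 130 CPM (median 56.2) in Y. Nnt ranged from 9.83 to 49.9 CPM in O and from 12.7 to 86 CPM in Y. The part of substrain in the differences between libraries 19 to 21 and the rest was not tested.

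In the main edgeR fit, old and young repopulated microglia differed by less than the spread between libraries could resolve, gene by gene. Of 18720 genes tested with edgeR's quasi-likelihood test over all 23 libraries, 0 passed a Benjamini-Hochberg adjusted p under 0.05 (0.0%). The smallest adjusted p was 0.315, shared by the leading genes below. At an unadjusted p under 0.05, 2183 genes (11.7%) were counted, of which 1467 were higher in O-re (7.84%) and 716 lower (3.82%). DESeq2 called 92 genes on the same counts (0.491%), 79 higher (0.422%) and 13 lower (0.0694%), and limma voom with sample quality weights called 3189 (17%), 1434 higher (7.66%) and 1755 lower (9.38%). Of genes described below, DESeq2 called Afdn, Zdhhc24, Klf10 and Tbc1d16, among others (DESeq2 adjusted p = 4.19e-06, 0.0037, 0.00613 and 0.0323). It did not call Ccl9, P2ry14 and Gnas, among others (DESeq2 adjusted p = 0.128, 0.22 and 0.12). The 8 O-re values lay wholly above or wholly below the 3 Y-re values for 423 genes (2.26%), 227 above (1.21%) and 196 below (1.05%). Among 10146 genes with at least 5 CPM on average, the groups did not overlap for 288 (2.84%). Of these 10146, 290 had an absolute log2 fold change of at least 1. The groups overlapped for 280 of the 290, near the share of all genes, and 270 of the 290 were higher in O-re. The 10 without overlap included the predicted genes Gm7334, Gm26527, Gm12693 and Gm2225, with log2 fold changes of 2.18, 1.61, 1.03 and -1.60. Predicted genes, clone names and pseudogenes were not ranked among the genes below.

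The size of the difference depended on which O-re libraries were compared. Libraries 7 to 11 against Y-re gave 0 edgeR calls (0.0%; 1106 genes, 5.91%, at an unadjusted p under 0.05), with a median absolute log2 fold change of 0.209 over all genes. Libraries 19 to 21 against the same Y-re libraries gave 3586 calls (19.2%), 1784 higher (9.53%) and 1802 lower (9.63%), with a median absolute log2 fold change of 0.521. Within the old repopulated group, libraries 19 to 21 against libraries 7 to 11 gave 3096 calls (16.5%), 1472 higher (7.86%) and 1624 lower (8.68%), which is a difference between libraries of 1 label. When library numbers 12 to 24 against 1 to 11 entered as a term beside the group, 846 genes were called between O-re and Y-re (4.52%), 531 higher (2.84%) and 315 lower (1.68%). When only libraries 12 to 24 of all groups were kept, 6236 of 17186 genes were called (36.3%), 3179 higher (18.5%) and 3057 lower (17.8%). With only the O-re and Y-re libraries among these, 5741 of 15452 were called (37.2%), 2968 higher (19.2%) and 2773 lower (17.9%). With numbers 12 to 21 as the term, a grouping added after seeing the data, 0 genes were called (0.0%). The first 2 comparisons share the Y-re libraries, and their values below are given side by side for that reason.

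Among genes of at least 5 CPM, predicted genes left out, whose O-re libraries all exceeded the Y-re libraries, Afdn had the largest fold change. Afdn encodes afadin, which ties cell adhesion molecules of the nectin family to the actin skeleton. It measured 8.31, 6.22 and 6.73 CPM in the Y-re libraries and from 11.1 to 48.7 CPM, median 30.5, in the O-re libraries. Every O-re library was higher, with library 8 highest at 48.7 CPM and library 7 lowest. The log2 fold change was 2.11 ± 0.39 (SE; adjusted p = 0.315 in edgeR), 1.82 for libraries 7 to 11 and 2.49 for libraries 19 to 21. Resident microglia gave a like difference, 22.3 to 36.4 CPM in O against 4.81 to 12.7 CPM in Y. Afdn was the gene that passed when library 7 was left out of the fit.

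Klf10, an early-response transcription factor of the TGF-beta pathway, measured 28.6, 28.4 and 34.8 CPM in Y-re and from 38.8 to 79 CPM, median 55.3, in O-re, so that the 2 groups were separate by a narrow gap. Its log2 fold change was 0.87 ± 0.19 (SE), 0.65 in libraries 7 to 11 and 1.17 in libraries 19 to 21. Tubb4b, a beta-tubulin, measured 42.4, 28 and 36.2 CPM in Y-re and from 45.5 to 98.8 CPM, median 63.3, in O-re (log2 fold change 0.88 ± 0.20, SE, 0.62 in libraries 7 to 11 and 1.22 in libraries 19 to 21; chr2:25222160-25224702, minus strand). Ccl9, a chemokine of myeloid cells, measured 76.5, 101 and 106 CPM in Y-re, 106 to 169 CPM in libraries 7 to 11 and 422, 189 and 304 CPM in libraries 19 to 21 (chr11:83572919-83578636, minus strand). The lowest O-re library, number 8, was within 1 CPM of the highest Y-re library, and the log2 fold change of Ccl9 was 1.05 ± 0.36 (SE; adjusted p = 0.382 in edgeR). Insig1, which holds back the transcription factor SREBP in the endoplasmic reticulum, was more even across the old libraries. It measured 26.2, 31.2 and 28.2 CPM in Y-re, 35.7 to 48.7 CPM in libraries 7 to 11 and 45.6, 42.2 and 48.9 CPM in libraries 19 to 21 (log2 fold change 0.58 ± 0.15, SE; chr5:28071363-28078662, plus strand). Ptpn12 (a tyrosine phosphatase, chr5:20986645-21055911, minus strand) had a log2 fold change of 1.22 ± 0.35 (SE), 0.72 in libraries 7 to 11 and 1.79 in libraries 19 to 21. Txnrd1, the cytosolic thioredoxin reductase, measured 67.8, 66.7 and 63.2 CPM in Y-re, 69.7 to 157 CPM in libraries 7 to 11 and 215, 149 and 189.5 CPM in libraries 19 to 21.

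The other genes of this direction with the largest fold changes, under the same limits, were Tspan17, Timm8a1, the transcript of the Rosa26 locus Gt(ROSA)26Sor and Siva1, with log2 fold changes of 1.03 ± 0.32, 0.87 ± 0.20, 0.86 ± 0.30 and 0.86 ± 0.24 (SE). Gt(ROSA)26Sor was alike in both number ranges: it measured 5.17, 3.38 and 4.5 CPM in Y-re, 7.06 to 8.59 CPM in libraries 7 to 11 and 8.84, 8.47 and 8.03 CPM in libraries 19 to 21. Tspan17, a tetraspanin, likewise gave log2 fold changes of 0.98 and 1.11 in the lower and higher numbers. Of the smallest p-values in this direction, Eif4a1, a helicase of translation initiation, measured 427, 407 and 445 CPM in Y-re and from 511 to 924 CPM, median 653, in O-re, with log2 fold changes of 0.48 in libraries 7 to 11 and 0.95 in libraries 19 to 21. Ppia, the cyclophilin A gene often used as a reference, measured 272, 249 and 262 CPM in Y-re and from 285 to 445 CPM, median 387, in O-re (log2 fold change 0.54 ± 0.12, SE, 0.51 in libraries 7 to 11 and 0.59 in libraries 19 to 21).

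**Figure D2:**
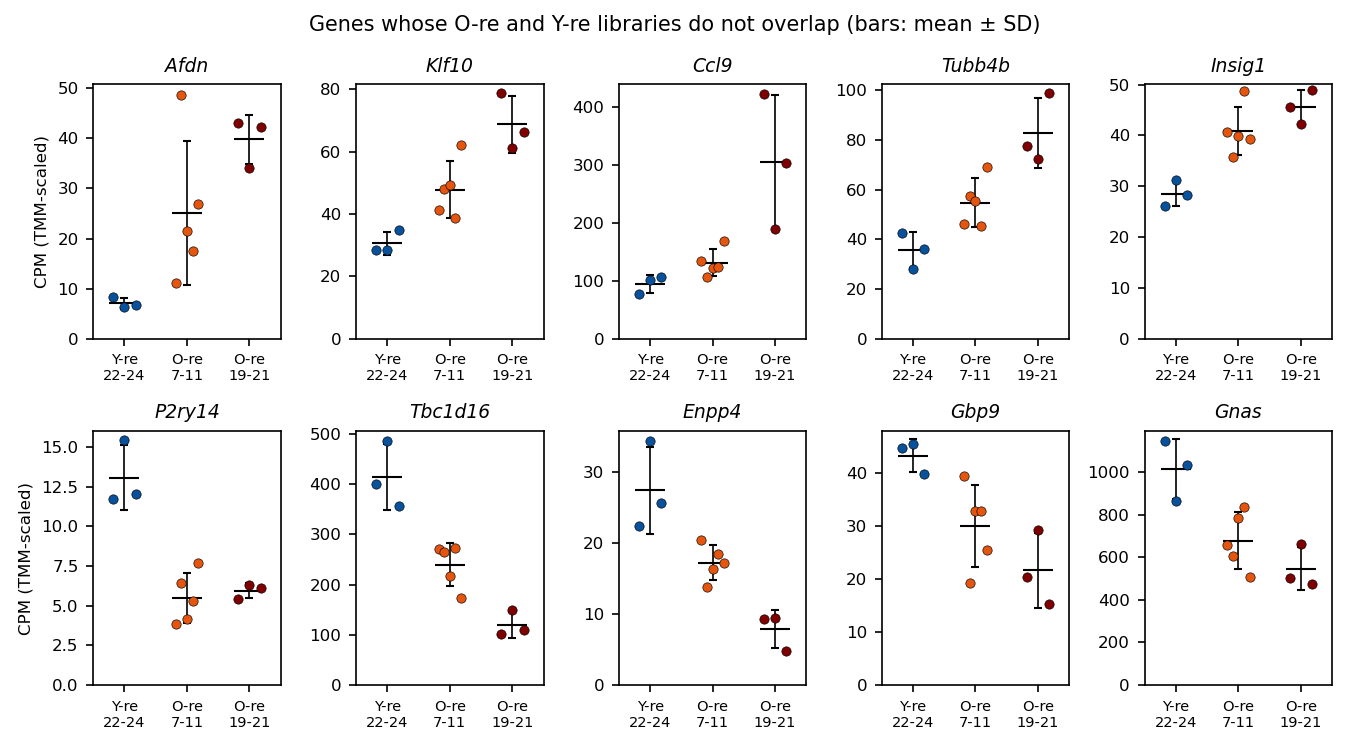
CPM (TMM-scaled, y axis) of 10 genes in the Y-re libraries 22 to 24 (n = 3), the O-re libraries 7 to 11 (n = 5) and the O-re libraries 19 to 21 (n = 3), 1 point per library, with the mean and SD as bars. In each panel all O-re points lie on one side of all Y-re points, above for Afdn, Klf10, Ccl9, Tubb4b and Insig1 and below for P2ry14, Tbc1d16, Enpp4, Gbp9 and Gnas.

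In the lower direction P2ry14 had the largest fold change among genes of at least 5 CPM, predicted genes left out, whose groups did not overlap. P2ry14 encodes a receptor for UDP-glucose, a danger signal released by stressed cells (chr3:59113855-59153618, minus strand). It measured 11.7, 15.4 and 12.1 CPM in Y-re, 3.82 to 7.66 CPM in libraries 7 to 11 and 5.44, 6.28 and 6.13 CPM in libraries 19 to 21. The O-re libraries were similarly low whatever their number, with log2 fold changes of -1.25 and -1.13, and -1.21 ± 0.44 (SE; adjusted p = 0.392 in edgeR) over all 8. In resident microglia the means lay the other way, at 0.742 to 11.6 CPM in O and 1.12 to 2.87 CPM in Y (log2 fold change 1.28), with overlap.

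Tbc1d16, a GTPase-activating protein for Rab proteins of the endosome (chr11:119143045-119228499, minus strand), measured 401, 486 and 356 CPM in Y-re, 174 to 273 CPM in libraries 7 to 11 and 101, 149 and 109 CPM in libraries 19 to 21. All 8 old libraries were lower, those numbered 19 to 21 the lowest, and the log2 fold change was -1.09 ± 0.27 (SE; adjusted p = 0.315 in edgeR). Gnas, which encodes the stimulatory G-protein alpha subunit that couples receptors to cyclic AMP, measured 1147, 865 and 1032 CPM in Y-re and from 473 to 837 CPM, median 632, in O-re (log2 fold change -0.69 ± 0.21, SE, -0.58 in libraries 7 to 11 and -0.89 in libraries 19 to 21). Gbp9, an interferon-inducible guanylate-binding protein of a family of close copies whose reads may be shared, measured 44.7, 45.5 and 39.8 CPM in Y-re and from 15.3 to 39.5 CPM, median 27.4, in O-re (log2 fold change -0.69 ± 0.21, SE, -0.53 in libraries 7 to 11 and -1.0 in libraries 19 to 21). Its highest O-re value, in library 7, nearly met the lowest Y-re value. Zdhhc24 had a small spread, 13.3 to 13.8 CPM in Y-re against 7.29 to 11.3 CPM in O-re (log2 fold change -0.64 ± 0.13, SE; edgeR adjusted p = 0.315). It showed no order by library number, with log2 fold changes of -0.59 in libraries 7 to 11 and -0.72 in libraries 19 to 21. Fkbp15, Fyco1 (an adaptor that links late endosomes and autophagosomes to kinesin) and Stard9 had log2 fold changes of -0.36 ± 0.08, -0.46 ± 0.11 and -0.59 ± 0.14 (SE), with Fkbp15 at 213 to 217 CPM in Y-re and 142 to 192 CPM in O-re. Enpp4, Tha1, Npnt, Zfp12 and Pnpla7 gave log2 fold changes of -1.0 ± 0.27, -0.81 ± 0.24, -0.73 ± 0.28, -0.70 ± 0.19 and -0.65 ± 0.24 (SE). For each of these 5 the difference was larger in libraries 19 to 21 (-1.81, -1.41, -1.18, -1.13 and -1.39) than in libraries 7 to 11 (-0.67, -0.54, -0.52, -0.50 and -0.34).

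Homeostatic microglial genes were lower on balance in old repopulated microglia, more so in libraries 19 to 21 than in libraries 7 to 11. Of 22 homeostatic genes tested, 20 had a lower mean in O-re and 2 a higher one, with a median log2 fold change of -0.42 against 0.048 over all genes tested, of which 54.6% were higher. The median was -0.13 in libraries 7 to 11 and -1.24 in libraries 19 to 21, where edgeR called 17 of the 22 lower (9.63% of all genes were called lower there). Resident microglia gave the same direction, with 2 of the 22 higher in O than in Y and a median of -0.57. P2ry12, the ADP receptor that steers microglial processes to injury, measured 1175, 1119 and 1407 CPM in Y-re, 1947, 547, 980, 1160 and 506 CPM in libraries 7 to 11 in order of number, and 239, 469 and 273 CPM in libraries 19 to 21. Library 7 was the highest of all 11, libraries 8, 9 and 11 were below every Y-re library, and 19 to 21 were the lowest (log2 fold change -0.69 ± 0.44, SE). Tmem119, a surface protein typical of microglia, measured 1044, 1138 and 1360 CPM in Y-re, 675 to 1659 CPM in libraries 7 to 11 and 420.3, 532 and 435 CPM in libraries 19 to 21. Sall1, the transcription factor that maintains microglial identity, measured 371, 269.5 and 386 CPM in Y-re, 105 to 505 CPM in libraries 7 to 11 and 53.4, 96.8 and 36.8 CPM in libraries 19 to 21. For both genes libraries 8 and 11 lay below all Y-re libraries, and libraries 19 to 21 lower still. In libraries 19 to 21 against Y-re the log2 fold changes were -1.91 for P2ry12, -1.35 for Tmem119, -2.46 for Sall1, -1.70 for Siglech and -1.22 for the fractalkine receptor Cx3cr1 (edgeR adjusted p = 0.00455, 0.00455, 0.00208, 0.00812 and 0.00669). Fcrls differed less, with -0.39 (edgeR adjusted p = 0.308). In whole libraries, fewer cells of a type and less RNA per cell cannot be told apart.

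Transcription factors of microglia and their progenitors followed in part. Of 20 tested, 16 were lower in O-re, with a median log2 fold change of -0.15, -0.064 in libraries 7 to 11 and -0.63 in libraries 19 to 21 (9 called lower and 1 higher by edgeR, against 9.63% and 9.53% of all genes). Spi1, which encodes PU.1, the master factor of the myeloid lineage, differed by 0.11 ± 0.08 (SE). Maf gave -0.78 and Bhlhe40, a repressor linked to myeloid activation, 2.06 in libraries 19 to 21 (edgeR adjusted p = 0.00983 and 0.0136).

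**Figure D3:**
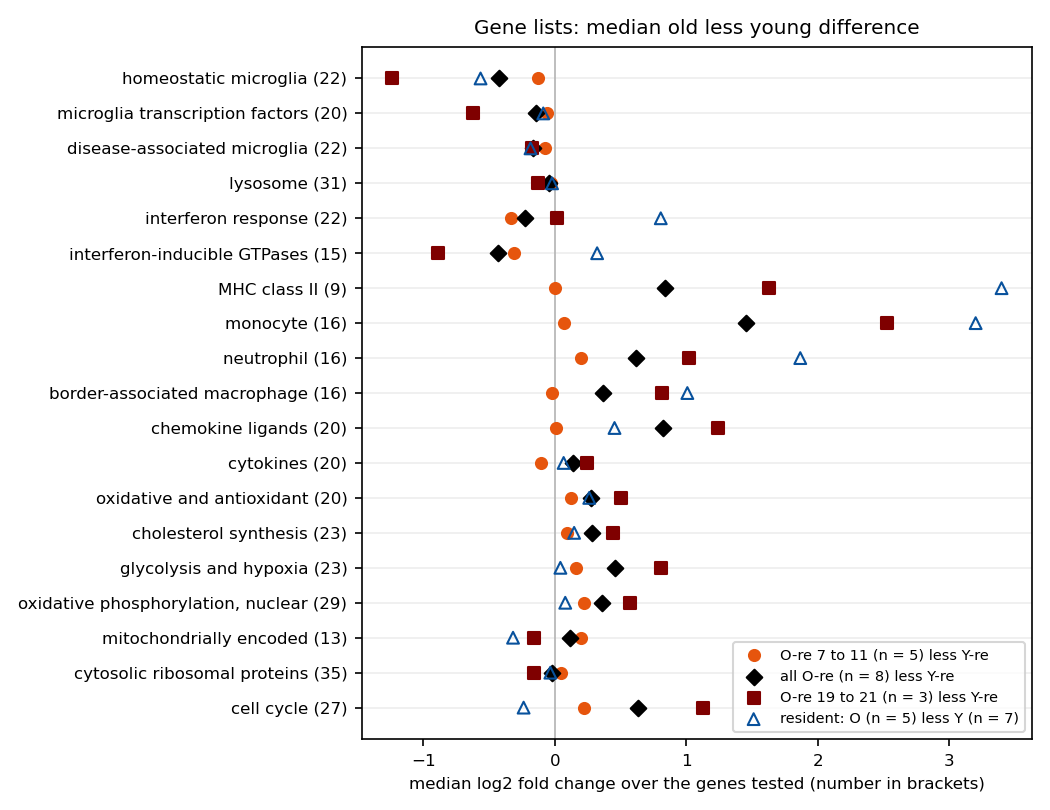
Median log2 fold change (x axis) over the tested genes of 19 lists (y axis, number of genes in brackets) for all O-re libraries (black diamonds), O-re 7 to 11 (orange circles) and O-re 19 to 21 (dark squares) less Y-re, and for resident O less Y (open triangles). Libraries 7 to 11 lie closer to 0 than libraries 19 to 21 in most lists, with the monocyte median at 0.067 against 2.52 and the homeostatic median at -0.13 against -1.24.

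Markers of monocytes moved with the homeostatic genes in the opposite sense. All 16 tested monocyte markers had a higher mean in O-re, with a median log2 fold change of 1.45, 0.067 in libraries 7 to 11 and 2.52 in libraries 19 to 21, where edgeR called 7 of them higher (9.53% of all genes). Their summed level was 1403 to 1950 CPM in Y-re, 940.7 to 3973 CPM in libraries 7 to 11 and 5328 to 8915 CPM in libraries 19 to 21. The direction was the same in resident microglia, where 15 of the 16 were higher in O than in Y, with a median of 3.20. Ccr2, the receptor that brings monocytes out of the marrow, measured 48.1, 122 and 24.9 CPM in Y-re, 32.3 to 141 CPM in libraries 7 to 11 and 452, 286 and 389.6 CPM in libraries 19 to 21. Libraries 7 to 10 lay within the Y-re range and library 11 above it, and in libraries 19 to 21 the log2 fold change was 2.53 (edgeR adjusted p = 0.0806). Vcan, a proteoglycan of classical monocytes, measured 2.75, 8.58 and 1.15 CPM in Y-re, 1.83 to 19.8 CPM in libraries 7 to 11 and 121, 36.9 and 62 CPM in libraries 19 to 21 (log2 fold change there 4.14, edgeR adjusted p = 0.011). Fibronectin, Fn1, measured 436, 822 and 652 CPM in Y-re, 267 to 1712 CPM in libraries 7 to 11 and 4455, 3180 and 6166 CPM in libraries 19 to 21 (log2 fold change there 2.85, edgeR adjusted p = 0.00525). For both genes libraries 19 to 21 were above all 8 other repopulated libraries, with library 11 next. Ly6c2, a defining marker of classical monocytes, ranged from 2.97 to 86.4 CPM in O-re and from 7.62 to 26.2 CPM in Y-re, and its difference did not pass in libraries 19 to 21 (edgeR adjusted p = 0.306). The part of these markers in the homeostatic difference was not tested.

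Markers of other cells gave a mixed picture. Neutrophil markers summed to 558.4 to 678.5 CPM in Y-re, 353.9 to 708.6 CPM in libraries 7 to 11 and 334.4 to 677.4 CPM in libraries 19 to 21, with 13 of 16 higher in O-re and Ly6g at most 0.597 CPM in any of the 11 libraries. Of 16 markers of border-associated macrophages, which line vessels and meninges, 12 were higher in O-re, and the list summed to 2352 to 2869 CPM in Y-re and 3569 to 4644 CPM in libraries 19 to 21. Mrc1 ranged from 23.7 to 375 CPM in O-re, highest in library 8, and from 97.2 to 128 CPM in Y-re, while Cd163 and Lyve1 stayed at or below 17.6 CPM in all 11. T and NK markers summed to 53.48 to 115.6 CPM in Y-re and 100.4 to 136.4 CPM in libraries 19 to 21, but Cd3e did not exceed 0.104 CPM. Most T and NK members went against the sum: of 14 tested, 4 were higher in O-re and 10 lower. Their median log2 fold change in libraries 19 to 21 was -1.54. Dendritic cell markers summed to 963.1 to 999.3 CPM in Y-re, 596.1 to 1115 CPM in libraries 7 to 11 and 623.5 to 838.3 CPM in libraries 19 to 21. Here too most members went against the sum. Of 16 tested, 10 were higher in O-re, with a median log2 fold change of 0.58 in libraries 19 to 21. The mean log2 CPM of the dendritic list was 2.69 to 3.11 in Y-re and 3.64 to 3.84 in libraries 19 to 21. B-cell markers summed to 87.68 to 124.4 CPM in Y-re and 29.1 to 45.8 CPM in libraries 19 to 21. For each of these 5 lists the Y-re range overlapped the range of libraries 7 to 11. Astrocyte markers summed to 1509 to 1767 CPM in Y-re, 1149 to 1978 CPM in libraries 7 to 11 and 400.8 to 585.7 CPM in libraries 19 to 21. Of 15 tested, 12 were lower in O-re, though Aqp4 reached at most 0.772 CPM. Endothelial and mural markers, 12 of 16 higher in O-re, summed to 60.06 to 72.48 CPM in Y-re and 26.98 to 117.1 CPM in O-re, with Cldn5 at most 2.53 CPM. Oligodendrocyte markers, 6 of 11 higher, summed to 119.8 to 125.8 CPM in Y-re and 96.39 to 139.6 CPM in O-re. Neuronal markers summed to at most 10.9 CPM in any repopulated library.

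**Figure D4:**
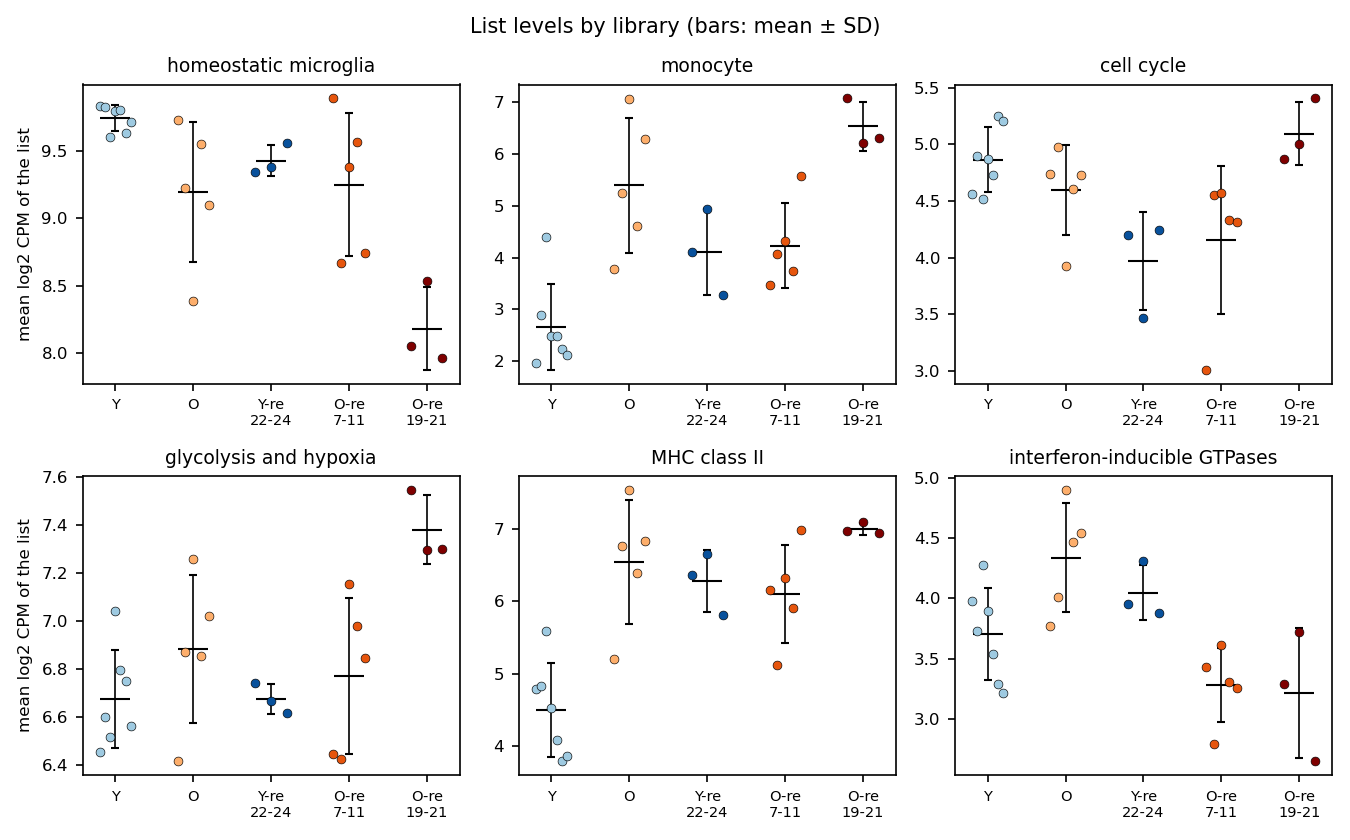
Mean log2 CPM of 6 gene lists (y axis) in each library of the resident groups Y (n = 7) and O (n = 5) and of Y-re (n = 3), O-re 7 to 11 (n = 5) and O-re 19 to 21 (n = 3), 1 point per library, with the mean and SD as bars. Libraries 19 to 21 lie below every Y-re library for homeostatic genes and above them for monocyte, cell cycle and glycolysis genes, while for interferon-inducible GTPases all 8 O-re libraries lie below all 3 Y-re libraries.

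Class II antigen presentation, which loads peptides for helper T cells, had a smaller median difference between the repopulated groups than between the resident ones, though for no gene did the difference of the 2 age effects pass its edgeR test. Of 9 genes tested, 6 were higher in O-re, with a median log2 fold change of 0.83, -0.0014 in libraries 7 to 11 and 1.63 in libraries 19 to 21. In libraries 19 to 21 against Y-re edgeR called 0 of the 9 higher and 3 lower (9.53% and 9.63% of all genes). The median in resident microglia was 3.40. By group, the mean log2 CPM of the list averaged 4.50 in Y, 6.55 in O, 6.28 in Y-re and 6.44 in O-re, so that Y lay lowest and O-re was close to O. Cd74, the invariant chain, measured 468, 649.7 and 242 CPM in Y-re, 327, 189.5, 459, 239.9 and 1051 CPM in libraries 7 to 11 in order of number, and 1471, 1383 and 1350 CPM in libraries 19 to 21. Only libraries 11 and 19 to 21 exceeded all Y-re libraries, and the log2 fold change was 0.83 ± 0.73 (SE). In libraries 19 to 21 it was 1.63 (edgeR adjusted p = 0.15). H2-Aa gave 0.90 ± 0.89 (SE) over all O-re libraries. H2-Oa, part of the complex that tempers peptide loading, lay lower, at -1.41 in libraries 19 to 21 (edgeR adjusted p = 0.00966).

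Interferon-linked genes were mostly lower in old than in young repopulated microglia and mostly higher in old than in young resident microglia. Of 22 interferon-response genes tested, 6 were higher in O-re, with a median log2 fold change of -0.22, -0.33 in libraries 7 to 11 and 0.013 in libraries 19 to 21. In O against Y all 22 were higher, with a median of 0.80. Interferon-inducible GTPases, which attack the membranes around intracellular pathogens, were lower in 14 of 15 (median -0.43, -0.31 in libraries 7 to 11 and -0.89 in libraries 19 to 21). Library by library, the mean log2 CPM of the GTPases was 3.88 to 4.31 in Y-re, 2.79 to 3.61 in libraries 7 to 11 and 2.65 to 3.72 in libraries 19 to 21, so that the groups did not overlap. EdgeR called 4 of them lower in libraries 19 to 21 against Y-re (9.63% of all genes) and 0 in the fit of all O-re libraries. Gbp5, which assembles inflammasomes with other members of its family, measured 22.3, 28.6 and 28.1 CPM in Y-re and from 12.7 to 27.8 CPM, median 18.4, in O-re (log2 fold change -0.52 ± 0.19, SE). The Gbp5 ranges overlapped through libraries 22 and 9. Ifi27l2a went against the list, at 1.14 in libraries 19 to 21 (edgeR adjusted p = 0.0423). Guanylate-binding proteins and immunity-related GTPases are families of close copies, and how the authors' counting divided shared reads may affect single members.

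Chemokine ligands, which recruit leukocytes, differed by member. Of 20 tested, 13 were higher in O-re, with a median log2 fold change of 0.82, 0.005 in libraries 7 to 11 and 1.24 in libraries 19 to 21 (6 called higher and 1 lower by edgeR, against 9.53% and 9.63% of all genes). Ccl2, the main ligand of Ccr2, measured 57.6, 54.5 and 59.5 CPM in Y-re, 53.5 to 94.5 CPM in libraries 7 to 11 and 349.9, 184 and 232 CPM in libraries 19 to 21. Libraries 19 to 21 stood well above all others, and libraries 7 to 10 lay close to the Y-re libraries. Ccl7, another Ccr2 ligand, measured 19.1, 8.44 and 17.4 CPM in Y-re, 4.14 to 34.6 CPM in libraries 7 to 11 and 279.6, 111 and 164 CPM in libraries 19 to 21. Their log2 fold changes in libraries 19 to 21 were 2.16 and 3.63 (edgeR adjusted p = 0.000226 and 0.00155). Ccl5, a T-cell and monocyte attractant, had the largest difference in the lower direction: it measured 46.4, 20.3 and 71.6 CPM in Y-re, 1.88 to 21.6 CPM in libraries 7 to 11 and 14.1, 10.4 and 6.49 CPM in libraries 19 to 21. Library 8 was lowest at 1.88 CPM and library 10 alone exceeded the lowest Y-re library, with a log2 fold change of -1.75 ± 0.47 (SE; adjusted p = 0.361 in edgeR), -1.55 in the lower and -2.16 in the higher numbers. Ccl6 and Cxcl13, the B-cell attractant, gave 1.36 ± 0.40 and 1.59 ± 0.53 (SE). Cxcl13 measured 3.48, 4.27 and 2.47 CPM in Y-re and from 2.16 to 17.8 CPM, median 9.94, in O-re, with library 21 below every Y-re library.

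Cytokines showed a similar split by library number. Of 20 tested, 12 were higher in O-re (median log2 fold change 0.14, -0.11 in libraries 7 to 11, 0.25 in libraries 19 to 21), and edgeR called 6 higher and 1 lower in libraries 19 to 21 (9.53% and 9.63% of all genes). Il1rn, the natural antagonist of the interleukin-1 receptor, measured 16.8, 24.6 and 16 CPM in Y-re, 15.7 to 39.3 CPM in libraries 7 to 11 and 266, 91 and 109 CPM in libraries 19 to 21. Lif, a cytokine of the interleukin-6 family, measured 1.28, 0.0444 and 0.75 CPM in Y-re, 0.49 to 2.32 CPM in libraries 7 to 11 and 25.4, 9.99 and 13.6 CPM in libraries 19 to 21. Il1b differed by 0.17 ± 0.32 (SE) over all O-re libraries. Of the 16 genes of alternative macrophage activation tested, 14 were higher in O-re, with a median log2 fold change of 0.075 in libraries 7 to 11 and 0.54 in libraries 19 to 21, where edgeR called 2 higher (9.53% of all genes). Arg1, arginase 1, spread widely: it measured 3.44, 17.4 and 0.861 CPM in Y-re, 2.57, 16.1, 29.5, 6.64 and 119 CPM in libraries 7 to 11 in order of number, and 619, 243 and 589 CPM in libraries 19 to 21. The log2 fold change of Arg1 was 4.81 ± 1.91 (SE), 2.27 in libraries 7 to 11 and 6.06 in libraries 19 to 21 (edgeR adjusted p = 0.0248 for the last). The monocyte marker sum was also highest in libraries 19 to 21 and, among libraries 7 to 11, in library 11, and its part in the chemokine, cytokine and alternative activation values was not tested.

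Genes of cell division leaned higher in old repopulated microglia. All 27 cell-cycle genes tested had a higher mean in O-re, with a median log2 fold change of 0.63 against 0.048 over all genes, 0.22 in libraries 7 to 11 and 1.12 in libraries 19 to 21. At an unadjusted p under 0.05, 11 of the 27 were counted higher (7.84% of all genes), and 0 passed adjustment. EdgeR called 18 higher in libraries 19 to 21 against Y-re (9.53% of all genes), 27 of 27 when only libraries 12 to 24 were kept (18.5% of all genes were higher there) and 1 with libraries 1 to 11 against 12 to 24 as a term (2.84%). In resident microglia 1 of the 27 was higher in O, and the median was -0.24. Averaged over libraries, the mean log2 CPM of the list was 3.97 in Y-re, 4.51 in O-re, 4.60 in O and 4.86 in Y. The mean over all O-re libraries was thus above that of Y-re but not above that of the resident groups. The parts of O-re differed: libraries 7 to 11 averaged 4.16, below both resident means, and libraries 19 to 21 averaged 5.1, above both.

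Among cell-cycle members with a RefSeq window of the 250 bases before the transcription start, the 3 with the smallest p were Cdc20, Pcna and Ccnb2. Their windows (GRCm38.p6, each on the minus strand, written 5′ to 3′) are shown because they carry the CCAAT box, a promoter element common among division genes. CCAAT, or ATTGG where the box lies on the other strand, is in capitals.
Cdc20, chr4:118437344-118437593: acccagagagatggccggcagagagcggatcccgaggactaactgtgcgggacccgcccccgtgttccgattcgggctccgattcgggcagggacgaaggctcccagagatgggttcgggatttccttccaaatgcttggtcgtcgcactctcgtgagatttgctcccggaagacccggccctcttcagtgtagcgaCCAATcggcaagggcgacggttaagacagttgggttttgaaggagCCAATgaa
Pcna, chr2:132253181-132253430: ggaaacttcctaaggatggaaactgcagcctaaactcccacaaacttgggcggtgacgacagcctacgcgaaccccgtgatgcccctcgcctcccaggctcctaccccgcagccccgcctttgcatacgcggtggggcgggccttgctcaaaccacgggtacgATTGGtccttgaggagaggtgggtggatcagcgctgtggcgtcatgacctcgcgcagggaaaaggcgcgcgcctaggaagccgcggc
Ccnb2, chr9:70421555-70421804: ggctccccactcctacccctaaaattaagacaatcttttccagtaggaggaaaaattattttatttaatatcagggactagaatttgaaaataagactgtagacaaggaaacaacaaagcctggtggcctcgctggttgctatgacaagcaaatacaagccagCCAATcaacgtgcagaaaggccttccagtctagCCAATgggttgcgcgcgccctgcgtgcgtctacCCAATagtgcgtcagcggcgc
Of the 27 members, 24 had such a window, and CCAAT on either strand occurred in 19 of the 24 (79.2%), against 33.8% of 32851 windows of all genes. At least 2 copies were found in 12 (50.0%), against 10.1% of all windows. The sequence TTTGAA, the core of the cell-cycle homology element, on either strand, was in 7 (29.2%), against 16%. These matches describe the windows and do not show that a factor binds there.

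Cdc20, the activator of the anaphase-promoting complex, measured 8.52, 5.58 and 6.64 CPM in Y-re, 4.41, 21.6, 12, 11.8 and 9.44 CPM in libraries 7 to 11 in order of number, and 13.8, 15.9 and 20.2 CPM in libraries 19 to 21. All O-re libraries but library 7 exceeded the Y-re libraries, and the log2 fold change was 0.98 ± 0.32 (SE; adjusted p = 0.38 in edgeR). Pcna, the clamp that holds DNA polymerase on its template, measured 133, 99 and 122 CPM in Y-re, 108 to 169 CPM in libraries 7 to 11 and 208, 179 and 222 CPM in libraries 19 to 21 (log2 fold change 0.49 ± 0.16, SE). Ccnb2, cyclin B2, measured 10.2, 11.7 and 12.2 CPM in Y-re, 8.47, 43, 20.2, 15.4 and 10.7 CPM in libraries 7 to 11 in order of number, and 27.1, 23.9 and 31.5 CPM in libraries 19 to 21 (log2 fold change 0.98 ± 0.35, SE). Library 8 was the highest of all 11 for both Ccnb2 and Cdc20, and library 7 the lowest. Mki67, the proliferation marker Ki-67, measured 119.5, 73.4 and 124 CPM in Y-re, 26.2, 164, 144, 104 and 122 CPM in libraries 7 to 11 in order of number, and 197, 228 and 324 CPM in libraries 19 to 21. Its log2 fold change was 0.63 ± 0.44 (SE), and 1.24 in libraries 19 to 21 (edgeR adjusted p = 0.0533). Top2a, the topoisomerase that untangles chromosomes, and Mcm6, a subunit of the replicative helicase, gave 1.26 and 1.27 in libraries 19 to 21 (edgeR adjusted p = 0.0466 and 0.00366). The kinase Cdk1 gave 0.35 ± 0.26 (SE) over all O-re libraries. The mean log2 CPM of the list was 3.47 to 4.24 in Y-re, 3.01 to 4.57 in libraries 7 to 11 and 4.87 to 5.41 in libraries 19 to 21, with library 7 lowest. Library 23, which stood apart on the second principal component, was the lowest of the Y-re libraries for this list, at 3.47.

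Genes of energy metabolism also leaned higher. All 29 nuclear genes of oxidative phosphorylation tested had a higher mean in O-re, with a median log2 fold change of 0.36, 0.22 in libraries 7 to 11 and 0.57 in libraries 19 to 21. At an unadjusted p under 0.05, 15 were counted higher (7.84% of all genes), and edgeR called 15 in libraries 19 to 21 against Y-re (9.53%). Cytochrome c, Cycs, measured 15.2, 7.53 and 14.2 CPM in Y-re, 9.51 to 18.9 CPM in libraries 7 to 11 and 35.7, 23.4 and 28.7 CPM in libraries 19 to 21 (log2 fold change 0.71 ± 0.33, SE). Atp5b, the catalytic beta subunit of ATP synthase, measured 423, 418 and 399 CPM in Y-re and from 342 to 686 CPM, median 561, in O-re, with library 7 below and the other 7 above all Y-re libraries (log2 fold change 0.37 ± 0.16, SE). Cox5a, a subunit of cytochrome c oxidase, gave 0.55 ± 0.25 (SE). The 13 genes encoded in mitochondrial DNA did not lean the same way in libraries 19 to 21: their median was 0.12 over all O-re libraries, 0.19 in libraries 7 to 11 and -0.16 in libraries 19 to 21, with 0 called. Cytosolic ribosomal protein genes had a median of -0.026, 0.046 in libraries 7 to 11 and -0.16 in libraries 19 to 21, with 15 of 35 higher.

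Glycolysis and hypoxia genes were higher in 18 of 23, with a median log2 fold change of 0.45, 0.16 in libraries 7 to 11 and 0.81 in libraries 19 to 21. EdgeR called 14 of them higher in libraries 19 to 21 (9.53% of all genes) and 9 higher with libraries 1 to 11 against 12 to 24 as a term (2.84%). Ldha, lactate dehydrogenase A, measured 289.8, 264 and 279 CPM in Y-re, 235 to 436 CPM in libraries 7 to 11 and 622, 485 and 561 CPM in libraries 19 to 21. Pgk1, which makes ATP in glycolysis, measured 153, 137 and 158 CPM in Y-re, 133 to 241 CPM in libraries 7 to 11 and 361, 284 and 359.7 CPM in libraries 19 to 21. For both, libraries 9 to 11 and 19 to 21 exceeded every Y-re library and library 7 lay below them. Pgk1 gave 0.69 ± 0.27 (SE) over all O-re libraries and 1.05 with the run of library numbers as a term (edgeR adjusted p = 0.00722). Vegfa, the hypoxia-induced growth factor of vessels, measured 60.3, 53.4 and 31.2 CPM in Y-re, 27.1, 10.5, 131, 48.7 and 168 CPM in libraries 7 to 11 in order of number, and 394, 262 and 315 CPM in libraries 19 to 21 (log2 fold change 1.81 ± 0.90, SE). Hexokinase 2, Hk2, lay lower, at -0.38 ± 0.22 (SE).

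Sterol synthesis and redox genes were also mostly higher in O-re. Of 23 cholesterol synthesis genes tested, 19 were higher in O-re (median log2 fold change 0.28, 0.089 in libraries 7 to 11, 0.44 in libraries 19 to 21), and edgeR called 11 higher in libraries 19 to 21 (9.53% of all genes). Insig1, described above, was the member whose groups did not overlap. Sqle, squalene epoxidase, gave 1.22 in libraries 19 to 21 (edgeR adjusted p = 0.00568). Of 20 oxidant and antioxidant genes, 15 were higher in O-re, with a median of 0.27, 0.12 in libraries 7 to 11 and 0.50 in libraries 19 to 21, where edgeR called 9 higher and 1 lower (9.53% and 9.63% of all genes). Gpx1, a glutathione peroxidase, was one whose groups did not overlap: it measured 297, 242 and 274 CPM in Y-re, 310.5 to 420 CPM in libraries 7 to 11 and 462, 387 and 422 CPM in libraries 19 to 21 (log2 fold change 0.44 ± 0.16, SE). Slc7a11, the cystine importer, measured 5.08, 10.1 and 3.73 CPM in Y-re, 5.27 to 14.4 CPM in libraries 7 to 11 and 79.2, 30.5 and 58.5 CPM in libraries 19 to 21. Srxn1, sulfiredoxin, and Hmox1, haem oxygenase 1, gave log2 fold changes of 1.88 and 1.29 in libraries 19 to 21 (edgeR adjusted p = 0.00231 and 0.00798).

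Heat-shock and folding genes split within the list. Of 21 tested, 16 were higher in O-re (median log2 fold change 0.14, 0.043 in libraries 7 to 11, 0.22 in libraries 19 to 21), and edgeR called 7 higher and 1 lower in libraries 19 to 21 (9.53% and 9.63% of all genes). Hspa1b, an inducible Hsp70 gene, measured 144, 127 and 65.6 CPM in Y-re, 30.1, 67.5, 31.8, 18.2 and 9.2 CPM in libraries 7 to 11 in order of number, and 18.6, 37.3 and 18.2 CPM in libraries 19 to 21. It lay lower in O-re whatever the library number, with log2 fold changes of -1.84 and -2.19 in the lower and higher numbers and, over all 8 libraries, of -1.96 ± 0.55 (SE; adjusted p = 0.373 in edgeR), although library 8 slightly exceeded library 24. Hspa1a, its near-identical neighbour, gave -1.08 ± 0.41 (SE), and the division of reads between the pair is uncertain. Dnaja1, a co-chaperone of Hsp70, pointed the other way without overlap: it measured 101, 102 and 89.2 CPM in Y-re and from 111 to 163 CPM, median 120.1, in O-re (log2 fold change 0.37 ± 0.16, SE). Hsp90aa1, the inducible Hsp90, gave 0.81 in libraries 19 to 21 (edgeR adjusted p = 0.00144). Of 24 immediate-early and dissociation genes, which can be induced while tissue is taken apart, 6 were higher in O-re, with a median of -0.095, 0.14 in libraries 7 to 11 and -0.48 in libraries 19 to 21.

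Genes of disease-associated microglia and of the lysosome had medians near that of all genes or slightly below it. Of 22 disease-associated genes tested, 8 were higher in O-re (median log2 fold change -0.17, -0.079 in libraries 7 to 11, -0.17 in libraries 19 to 21). EdgeR called 2 higher and 4 lower in libraries 19 to 21, where 9.53% of all genes were called higher and 9.63% lower, so that the higher count was near the share of all genes. Trem2, the lipid-sensing receptor, and Cst7, cystatin F, lay lower in libraries 19 to 21, at -1.28 and -1.48 (edgeR adjusted p = 0.000912 and 0.0152). Ccl6 and Lgals3 (galectin-3) lay higher, at 2.02 and 2.03 (edgeR adjusted p = 0.00104 and 0.0451). Gpnmb, a glycoprotein of lipid-laden macrophages, spread widely within both groups: it measured 2930, 211 and 1229 CPM in Y-re and from 93.7 to 2159 CPM, median 1236, in O-re. Apoe gave -0.48 ± 0.35 (SE). Lysosomal genes were higher in 11 of 31, with a median of -0.042, -0.033 in libraries 7 to 11 and -0.13 in libraries 19 to 21, where edgeR called 2 higher and 8 lower (9.53% and 9.63% of all genes). Cst3, cystatin C, measured 5000, 5544 and 5978 CPM in Y-re, 2521 to 8788 CPM in libraries 7 to 11 and 1290, 1809 and 909 CPM in libraries 19 to 21. Ctsk, cathepsin K, a collagen-degrading protease, measured 1.52, 2.58 and 1.04 CPM in Y-re, 0.347, 97.1, 2.42, 1.14 and 8.39 CPM in libraries 7 to 11 in order of number, and 52.1, 33.8 and 39.7 CPM in libraries 19 to 21, with library 8 highest and library 7 lowest of all 11. In purinergic signalling 7 of 16 genes were higher in O-re. Entpd1, the ectoenzyme CD39 that degrades extracellular ATP, and the ATP-gated channel gene P2rx7 lay lower in libraries 19 to 21, at -1.31 and -0.95, and the adenosine receptor gene Adora2b higher, at 4.33 (edgeR adjusted p = 0.00154, 0.00222 and 0.0109).

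Single genes differed strongly between the 2 ranges of library numbers within the old repopulated group. Among genes of at least 5 CPM, predicted genes left out, libraries 19 to 21 exceeded libraries 7 to 11 most for Flrt3, Gpat3 and Sdc1. Flrt3, an adhesion protein, measured 0.833, 1.22 and 0.221 CPM in Y-re, 0.47 to 2.68 CPM in libraries 7 to 11 and 43.6, 10.5 and 13.2 CPM in libraries 19 to 21. The log2 fold changes of 19 to 21 over 7 to 11 were 4.18 for Flrt3, 3.89 for Gpat3 (an acyltransferase of triglyceride synthesis) and 3.88 for Sdc1 (syndecan-1), with edgeR adjusted p = 0.0221, 0.00669 and 0.0409. They lay below libraries 7 to 11 most for Upk1b, Mycl and Sult1a1, at -4.39, -4.11 and -3.68 (edgeR adjusted p = 0.00455, 0.00204 and 0.00124). Sult1a1, a sulfotransferase, measured 38.8, 44.9 and 56.4 CPM in Y-re, 27.2 to 55 CPM in libraries 7 to 11 and 2.5, 4.49 and 2.25 CPM in libraries 19 to 21, so that libraries 7 to 11 overlapped the young libraries and libraries 19 to 21 did not. Mycl, a Myc-family factor, measured 12.7, 16.7 and 24.9 CPM in Y-re, 8.11 to 23.3 CPM in libraries 7 to 11 and 0.482, 1.34 and 0.735 CPM in libraries 19 to 21.

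Old against young was also compared in resident microglia, which share no library with the repopulated comparison, to ask whether the age difference after regrowth differed from the one without it. Over 10146 genes of at least 5 CPM on average, the 2 sets of log2 fold changes had a Pearson correlation of 0.473 and a Spearman correlation of 0.48 across genes, which are not independent replicates, and 67.3% had the same sign. The SD of the log2 fold changes was 0.447 in the repopulated comparison and 0.606 in the resident one. Of the 288 genes whose O-re and Y-re libraries did not overlap at this level (2.84%; 1.62% higher and 1.22% lower), 184 had the same sign in resident microglia. The difference of the age effects passed an adjusted p under 0.05 in 0 of 18720 genes with edgeR (0.0%; smallest adjusted p = 0.319), with 1542 (8.24%) at an unadjusted p under 0.05. DESeq2 called 46 genes for this difference (0.246%), 18 with a more positive effect in repopulated microglia and 28 with a more negative one.

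Tnfsf8 (a ligand of the TNF family), P2ry14, Hspa1b, Ccl5 and Gbp9 had opposite signs in the 2 comparisons. Tnfsf8 measured 25.4, 26.3 and 29.8 CPM in Y-re and from 11 to 23.2 CPM, median 18.6, in O-re, without overlap, and its log2 fold change was -0.59 ± 0.31 (SE) in repopulated and 1.29 in resident microglia. The difference between the age effects was -1.88 ± 0.41 (SE; adjusted p = 0.319 in edgeR) for Tnfsf8, -2.48 ± 0.60 (SE; adjusted p = 0.336 in edgeR) for P2ry14 and -3.03 ± 0.75 (SE; adjusted p = 0.336 in edgeR) for Hspa1b. For Gbp9 and Ccl5 it was -1.15 ± 0.28 and -2.13 ± 0.65 (SE; edgeR adjusted p = 0.336 and 0.423). None of the 5 passed. Afdn, by contrast, had like values, 2.11 ± 0.39 (SE) and 2.01, and Ccl9 and Klf10 gave 0.27 and 0.23 in resident microglia against 1.05 ± 0.36 and 0.87 ± 0.19 (SE).

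**Figure D5:**
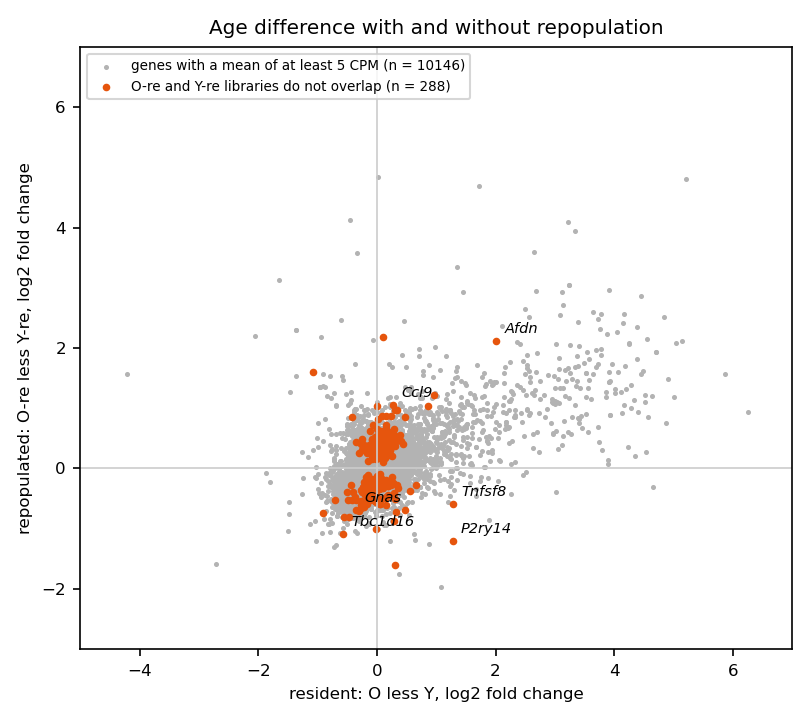
Log2 fold change of old over young in repopulated microglia (O-re less Y-re, y axis) against the same in resident microglia (O less Y, x axis) for 10146 genes of at least 5 CPM on average, with the 288 genes whose O-re and Y-re libraries do not overlap in orange. Afdn lies high on both axes, while P2ry14 and Tnfsf8 lie to the right of 0 and below 0; 2 genes fall outside the axes.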

How the data were processed

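RNA of 23 microglia libraries was sequenced, and the 8 O-re and 3 Y-re libraries were compared. Per the submitters' processing notes, FastQC 0.11.5, STAR, RSEM and limma were used with GRCm38, with no annotation release given in the sources used here. The authors deposited, for each library, the expected count and the TPM of 53090 genes in RSEM's layout. Expected counts (87.3% whole, within 1e-06) were rounded and analysed with edgeR 4.0.16 in R 4.3.3. The fit used TMM scaling, filterByExpr (18720 genes kept), group means for all 4 groups and Benjamini-Hochberg adjustment at 0.05. The deposited TPM served only for levels per length. Deposits of no 2 libraries were identical. Alternatives used DESeq2 1.42.0, limma 3.58.1 (voom with sample quality weights), other scalings and filters, library number as a term, subsets of libraries and each library left out. Tested on simulated data for O-re against Y-re over 18720 genes, the fit called 81 of 100 genes changed 2-fold and 91 of 100 changed 4-fold, with 9 false calls. The simulated counts were drawn independently around 1 mean per gene, without the split by library number seen within O-re. They therefore do not tell how many such changes the fit would find in the real libraries.

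Genes of at least 5 CPM on average over the O-re and Y-re libraries, predicted genes, clone names and pseudogenes left out, were named where the groups did not overlap (the 10 largest fold changes per direction), where p was lowest (5 per direction), where O-re libraries 7 to 11 and 19 to 21 differed most (3 per direction), and among members of 46 gene lists. The members and lists were chosen with earlier results of these data known, so no list was given a test. Values of some list members are not reported here. Gene positions are from GENCODE M21 (GRCm38) and are given where the versioned identifier was identical. No correction for depth was made beyond scaling, and the spread between libraries served as the error throughout.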

Additional observations from a re-analysis of the deposited data

Results flagged for a closer look

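In 166 sets of 4 to 10 libraries (named genes, list levels and library measures, by group), 7 had a highest or lowest library whose gap to its neighbour exceeded Dixon's 95% critical value (0.526 for 8 libraries). Chance flags about 1 set in 20. O-re replicate 1 (library 7) accounted for 4 of the 7. Its Mki67 level was 4.716 log2 CPM against 6.698 to 8.341 in the other O-re libraries, and its cell-cycle list averaged 3.01 log2 CPM against 4.315 to 5.409. Its fatty acid synthesis list averaged 3.236 log2 CPM against 3.907 to 4.478, and its lysosome list 8.729 against 9.053 to 9.323. O-re replicate 2 (library 8) had 3.202% of its counts on mitochondrially encoded genes against 1.62% to 2.359% in the others, and an interferon response list of 4.174 log2 CPM against 5.346 to 6.278. O-re replicate 7 (library 20) had a B-lymphocyte list of -2.015 log2 CPM against -0.9732 to -0.3488, a level near the limit of detection. What sets these libraries apart was not tested.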

How the results depend on the processing

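No paired analysis was possible because the replicate numbers follow accession order only. Of the choices tried, those on library number and the test moved the counts most. For O-re against Y-re (0 calls), DESeq2 gave 92 calls, voom with quality weights 3189, library numbers 1 to 11 against 12 to 24 as a term 846, only libraries 12 to 24 6236, and only the O-re and Y-re libraries among these 5741. Libraries 19 to 21 alone gave 3586. Leaving out each library gave 0 to 1. For the difference of age effects (0 calls) the same alternatives gave DESeq2 46, voom 151, the run term 7, numbers 12 to 21 as a term 5, and only libraries 12 to 24 1524. Leaving out each library gave 0 to 1. The 423 genes without overlap became 448 to 1339 when 1 library was left out, the highest without O-re replicate 1, and 2265 without the 3 libraries that stood apart (O-re replicate 1, Y-re replicate 2, Y replicate 3), an alternative chosen after seeing the data. They were 289 where the minimum mean of 5 CPM was taken over all 23 libraries, not over the 11 repopulated ones (288). Of 116 named genes, 106 kept their sign under every alternative. The signs that turned were Upk1b (1.03) at -2.72 in libraries 19 to 21, -0.82 with the run term, -2.75 and -2.74 in libraries 12 to 24 (repopulated only, all groups) and -1.16 with voom; Nnt at 0.12 in libraries 7 to 11 and 0.19 with the 12 to 21 term; Gpnmb, -0.91 to 0.63 over the libraries left out in turn, positive without Y-re replicate 1; Il1b at -0.41 in libraries 7 to 11, -0.11 with the 12 to 21 term and -0.13 to 0.27 over the libraries left out in turn, negative without O-re replicate 6; and, in libraries 7 to 11, Fcrls 0.012, Crybb1 0.30, Cd74 -0.0014, H2-Aa -0.020, Ccr2 -0.12 and Ccl7 -0.19. Of 45 list medians, 16 moved by more than the spread between replicates under an alternative; at a mean of at least 5 CPM no neuronal gene was left. The cause was not tested. What depth limits was not tested.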

Other observations

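Complement and iron genes, which no comparison above covers, had list levels that overlapped between the groups, while single members differed in libraries 19 to 21. Of 16 complement genes tested, 4 were higher in O-re than in Y-re, and edgeR called 1 higher and 5 lower in libraries 19 to 21 (9.53% and 9.63% of all genes). The mean log2 CPM of the list was 6.82 to 7.14 in Y-re, 6.15 to 7.23 in libraries 7 to 11 and 6.54 to 7.04 in libraries 19 to 21. The C1q chains lay together, with log2 fold changes in libraries 19 to 21 of -0.99 for C1qa, -0.89 for C1qb and -1.03 for C1qc (edgeR adjusted p = 0.00455, 0.00284 and 0.00255), and -0.13, -0.066 and -0.14 in libraries 7 to 11. C5ar1, the receptor for the anaphylatoxin C5a, lay the other way: it measured 133, 142 and 165 CPM in Y-re, 134 to 229 CPM in libraries 7 to 11 and 297, 215 and 267 CPM in libraries 19 to 21. Of 13 iron-handling genes, edgeR called 2 higher and 3 lower in libraries 19 to 21 (9.53% and 9.63% of all genes). Transferrin, Trf, gave -1.74 and the iron exporter Slc40a1 -1.89 there (edgeR adjusted p = 0.00059 and 0.00484), against -0.31 and -0.17 in libraries 7 to 11. The transferrin receptor Tfrc gave 0.54 (edgeR adjusted p = 0.0114), against 0.063 in libraries 7 to 11.

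Other lists had medians near 0 between O-re and Y-re, with differences by library number in some. Toll-like receptors and inflammasome genes (10 of 24 higher in O-re) had a median log2 fold change of -0.058 in libraries 7 to 11 and -0.071 in libraries 19 to 21. Phagocytic uptake (12 of 24) gave -0.097 and 0.094, and the TGF-beta pathway (13 of 21) 0.0026 and 0.067. Senescence and p53 genes (9 of 17) gave -0.062 and 0.20. For the CSF1R axis (6 of 12) the medians were -0.044 and -0.23, and edgeR called 1 gene higher and 4 lower in libraries 19 to 21 (9.53% and 9.63% of all genes). Its mean log2 CPM was 8.77 to 8.86 in Y-re, 8.50 to 8.91 in libraries 7 to 11 and 8.37 to 8.59 in libraries 19 to 21, so that libraries 19 to 21 lay below all Y-re libraries. For integrins and adhesion (11 of 21) the medians were 0.035 and 0.26, and edgeR called 5 genes higher and 5 lower in libraries 19 to 21 (9.53% and 9.63% of all genes). Their mean log2 CPM was 7.35 to 7.53 in Y-re, 7.07 to 7.71 in libraries 7 to 11 and 7.78 to 7.95 in libraries 19 to 21, above all 8 other repopulated libraries. Alzheimer risk genes (7 of 20) gave medians of -0.067 and -0.11, and MHC class I genes (5 of 15) -0.10 and -0.24.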
